A study of Homo sapiens with 12 samples.

Results

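The 9 genes described here encode enzymes that turn squalene into cholesterol: SQLE, LSS, CYP51A1, TM7SF2, MSMO1 (older symbol SC4MOL), NSDHL, EBP, SC5D (older symbol SC5DL) and DHCR7. They were chosen by name, as every gene probe whose name in the scanner files is one of these or another symbol of the same gene. They are 9 of 29244 gene names and 16 of 41000 gene probes on the array, and all 16 probes passed the filter on dim probes. The RNA came from HuH-7, a human hepatocellular carcinoma cell line whose p53 carries the Y220C mutation, which all groups share. Cells were exposed for 24 h to DMSO, the solvent alone, or to SLMP53-2, a small molecule studied as a reactivator of this mutant p53, at 28 or 42 µM, which correspond to 2 and 3 multiples of the IC50. There are 3 groups of 4 arrays, described as biological replicates and spread over 5 slides. Some sample labels give the higher dose as 48 µM instead, and 42 µM is used throughout. All cells come from a single line, so the spread between arrays is that of separate cultures of it.

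Cholesterol is made from acetyl-CoA by way of mevalonate and squalene, and the enzymes from squalene onwards work in the membrane of the endoplasmic reticulum. SQLE places an epoxide on squalene, LSS closes the chain into lanosterol, and the later enzymes remove methyl groups and move or reduce double bonds until cholesterol is reached. In liver cells the product goes into membranes, lipoproteins and bile acids. Genes of the whole route are known to be driven together by SREBP2, a transcription factor that is held in the endoplasmic reticulum while sterols are plentiful and that works with NF-Y and Sp1 at promoters.

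Because the genes share this known control, their promoters were read from RefSeq windows of 250 bases before to 50 after the transcription start (build GRCh38.p14), of which 10 belong to 8 of the 9 genes, among 35116 promoters in all. DHCR7 and SC5D have 2 windows each, of which the first is shown and plotted, and SQLE had no window. The stretches of 150 bases before the start are shown for LSS, EBP and DHCR7, the genes past the limits at 42 µM, and for NSDHL, the gene of smallest log2 fold change there. Capitals mark the NF-Y letters CCAAT and the Sp1 letters GGGCGG on either strand. The LSS stretch is chr21:46228775-46228924 (minus strand), the EBP stretch chrX:48521658-48521807 (plus strand), the DHCR7 stretch chr11:71448394-71448543 (minus strand) and the NSDHL stretch chrX:152830913-152831062 (plus strand).
LSS: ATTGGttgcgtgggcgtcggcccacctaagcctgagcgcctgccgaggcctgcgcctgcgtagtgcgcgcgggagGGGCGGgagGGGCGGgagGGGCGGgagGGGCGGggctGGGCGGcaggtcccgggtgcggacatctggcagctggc
EBP: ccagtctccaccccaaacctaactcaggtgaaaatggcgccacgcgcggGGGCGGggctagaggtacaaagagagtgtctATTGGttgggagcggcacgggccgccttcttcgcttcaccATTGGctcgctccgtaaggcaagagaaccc
DHCR7: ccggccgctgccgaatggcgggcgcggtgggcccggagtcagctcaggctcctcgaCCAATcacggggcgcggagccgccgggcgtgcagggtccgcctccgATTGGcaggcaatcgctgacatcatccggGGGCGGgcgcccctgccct
NSDHL: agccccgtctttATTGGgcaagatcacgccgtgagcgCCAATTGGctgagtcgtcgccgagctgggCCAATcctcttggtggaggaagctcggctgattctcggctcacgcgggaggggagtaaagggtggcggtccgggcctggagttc

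CCAAT occurred in 8 of the 10 windows, all but that of CYP51A1 and the second of DHCR7, against 34.6% of all promoters, and GGGCGG in 8 of the 10, all but that of NSDHL and the second of DHCR7, against 45.0%. LSS held 5 GGGCGG matches in the stretch shown, EBP and DHCR7 held 1 each, and NSDHL held none there but 4 CCAAT matches, of which a pair overlaps. A sterol regulatory element spelled TCACNCCAC was found in 0 of the 10 windows and in 1.13% of all promoters. The E-box CACGTG was found in the LSS window and both SC5D windows, 3 of 10, against 7.26%, and TGATGNAA, the letters of an ATF4 composite element, in 0 of 10, against 3.62%. Both strands were searched for each motif. These are matches of letters, and an absent match says only that these letters are not in the window.

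**Figure D1:**
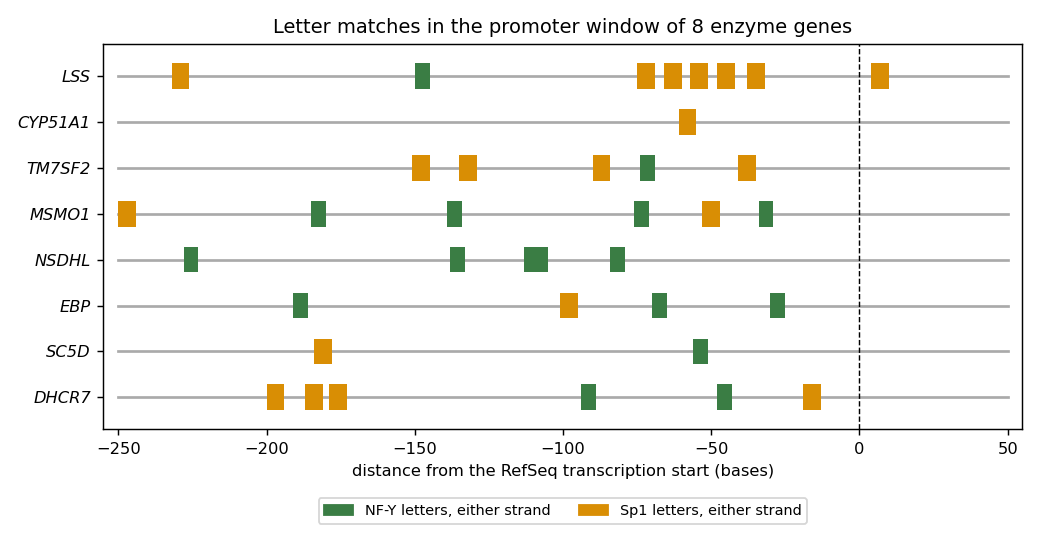
Position of NF-Y letters (CCAAT, green) and Sp1 letters (GGGCGG, orange) on either strand in the promoter windows of the 8 genes that have one, in pathway order, with the first window where a gene has 2. The horizontal axis is the distance in bases from the RefSeq transcription start (dashed line), with the window running from 250 bases before to 50 after it. The 5 close orange blocks before the LSS start and the lack of orange in NSDHL are visible.

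Levels are log2 intensities of the brightest probe of each gene after the Edwards background correction and quantile normalization, and they are compared only within a probe. A gene was called when limma's Benjamini-Hochberg adjusted p was below 0.05 and the log2 fold change at least 0.6. All 12 arrays had values for every one of the 16 probes, and each probe was well above background on all 12 arrays apart from the dimmest SC5D probe, on 11. Of the gene spots, 65.0% to 85.0% were well above background and 0 were saturated. Among markers of hepatocyte-type cells, 9 of 10 were well above background on all 12 arrays, with albumin (ALB) at 16.14 in DMSO, and 0 of 10 were called at either dose. Of 5 fibroblast markers 3 were well above background on all 12 arrays, COL1A2 at 10.13 in DMSO, and of 5 leukocyte markers 4 were, while PTPRC, which defines leukocytes, did not pass the filter. None of these markers was called at either dose. Of all genes tested, 1.57% were called higher and 1.43% lower at 42 µM, and 0% at 28 µM.

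One array stood apart before any gene was compared. Across all probes tested, the 28 µM replicate 4 correlated best with DMSO replicate 3, at r = 0.995, whereas each other 28 µM array correlated best with a 42 µM array. That DMSO array lies on the same slide, and 28 µM replicates 1 and 2 also share a slide with the array nearest to them. In the 9 genes together, the median difference from the DMSO mean was −0.05 on this array and 1.06, 1.17 and 0.75 on 28 µM replicates 1, 2 and 3. The arrays of 42 µM had medians of 1.18, 0.98, 0.66 and 0.75, and the DMSO arrays lay between −0.06 and 0.12. Of the 9 genes, 0 were above all DMSO arrays on 28 µM replicate 4, whereas 8, 9 and 8 were on the other 28 µM arrays. Its label was kept, and the counts and log2 fold changes of the members at 28 µM are given with and without it.

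In HuH-7 cells exposed to 42 µM SLMP53-2, LSS, EBP and DHCR7 rose, by 2.99-fold, 1.52-fold and 2.08-fold. These are 3 of the 9 genes, where 1.57% of the 24250 genes tested were called higher, and 0 of the 9 were called lower, where 1.43% were. The other 6 had log2 fold changes of 0.46 to 1.05 that did not pass the adjusted limit, so that all 9 were positive, as were 45.7% of all genes. The median over the 9 was 0.88, or 1.84-fold, against −0.02 over all genes tested. In 7 of the 9 genes, all but CYP51A1 and NSDHL, the 4 arrays of 42 µM lay above all 4 DMSO arrays, as they did in 5.92% of all genes. At an unadjusted p below 0.05 all 9 were higher, where 8.34% of all genes were. In bulk RNA, a larger share of cells with more transcript and more transcript in every cell cannot be told apart.

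At 28 µM no gene passed, with 0 of the 9 called where 0% of all genes were, in a comparison that uses the same DMSO arrays, and limma's smallest adjusted p over all probes was 0.116. Among the 9 the adjusted p ranged from 0.180 for LSS to 0.653 for SQLE. Their log2 fold changes were all positive, as were 45.4% of all genes, and ran from 0.28 for NSDHL to 1.14 for LSS, with a median of 0.70, or 1.63-fold, against −0.02 over all genes. At an unadjusted p below 0.05, 6 of the 9 were higher, against 5.57% of all genes, and without replicate 4 it was 8, against 7.92%. The 4 arrays of 28 µM lay above all DMSO arrays in 0 of the 9 genes, against 2.78%, and in 8 of the 9, all but NSDHL, the 3 arrays other than replicate 4 did, against 7.44%.

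Without 28 µM replicate 4, 6 of the 9 genes were called at 28 µM, where 1.44% of all genes were called higher. They were LSS, DHCR7, SC5D, TM7SF2, MSMO1 and CYP51A1, with log2 fold changes of 0.91 to 1.49, and the median over the 9 was 0.96. EBP had an adjusted p of 0.0287 but a log2 fold change of 0.54, below the size limit, and SQLE (adjusted p = 0.135) and NSDHL (adjusted p = 0.467) did not pass. The groups share 1 estimate of spread per probe, and the SE of LSS at 42 µM was 0.13 without this array and 0.27 with it. At 42 µM 8 of the 9 genes, all but NSDHL, were then called, where 2.24% of all genes were called higher.

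**Figure D2:**
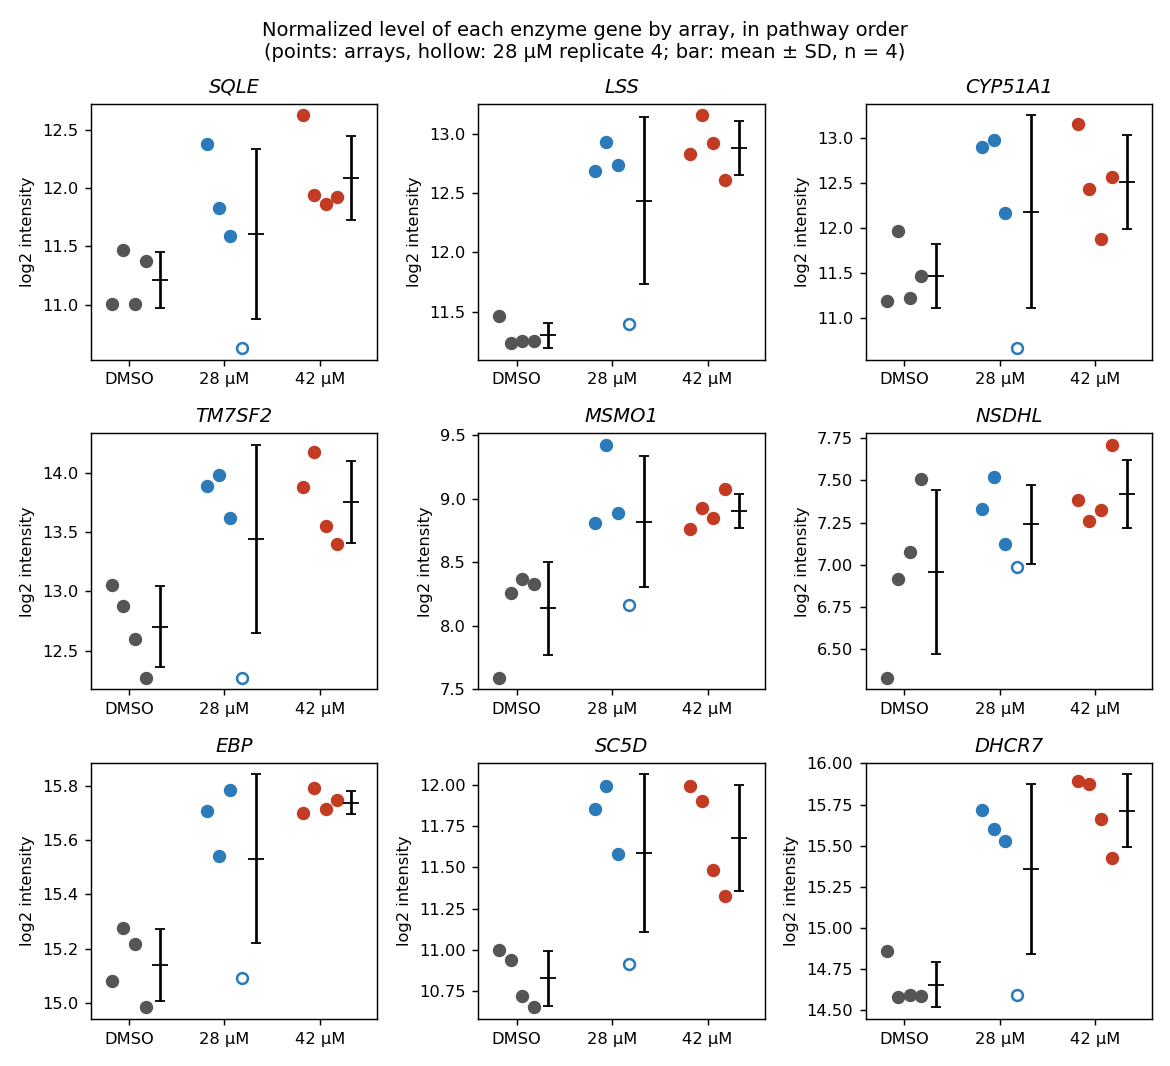
Log2 intensity of the brightest probe of each of the 9 genes on each of the 12 arrays, in pathway order, by group (DMSO, 28 µM, 42 µM). Points are arrays, the hollow point is 28 µM replicate 4, and the bar beside each group is its mean ± SD (n = 4). The vertical axes differ between panels and do not start at 0, and the hollow point lies among or below the DMSO points in every panel.

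SQLE, the squalene epoxidase and a rate-limiting step of this part of the route, has a probe at chr8:126034443-126034502 (plus strand, hg19, the build of the probe positions in the scanner files). Its log2 intensity was 11.005, 11.47, 11.002 and 11.37 on DMSO replicates 1 to 4, 12.38, 11.83, 11.59 and 10.63 on 28 µM replicates 1 to 4, and 12.63, 11.94, 11.86 and 11.93 on those of 42 µM. All 42 µM arrays lay above all DMSO arrays, and replicate 4 of 28 µM lay below them all. The mean was 11.21 ± 0.24 in DMSO and 12.09 ± 0.36 at 42 µM (SD, n = 4), a log2 difference of 0.88 (SE 0.30) with an adjusted p of 0.148, which did not pass. At 28 µM the mean was 11.61 ± 0.73 (SD, n = 4), 0.39 above DMSO on the log2 scale, and 0.72 above it without replicate 4.

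LSS, lanosterol synthase, which closes the sterol rings, showed the largest log2 fold change of the 9 at both doses. Its brightest probe, at chr21:47609299-47609358 (minus strand), read 11.46, 11.23, 11.25 and 11.26 in DMSO, 12.69, 12.93, 12.74 and 11.39 at 28 µM and 12.83, 13.16, 12.92 and 12.61 at 42 µM. The DMSO and 42 µM arrays did not overlap, with a gap of over 1 between them, and 28 µM replicate 4 lay within the DMSO range while the other 28 µM arrays lay among those of 42 µM. At 42 µM the log2 difference from DMSO was 1.58 (SE 0.27, 95% interval 1.01 to 2.15, adjusted p = 0.0139). At 28 µM it was 1.14 (SE 0.27, adjusted p = 0.180), and 1.49 (SE 0.14, adjusted p = 0.00041) without replicate 4. Within the 3 slides that hold a DMSO and a 42 µM array, the difference was 1.58, 1.91 and 1.69.

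CYP51A1, the cytochrome P450 that takes the first methyl group from lanosterol, had the largest SD of the 9 genes at each dose, 1.08 at 28 µM and 0.53 at 42 µM (n = 4). Its brightest probe read 11.19, 11.96, 11.22 and 11.47 in DMSO, 12.90, 12.98, 12.17 and 10.66 at 28 µM and 13.16, 12.44, 11.88 and 12.57 at 42 µM. The groups overlapped, since 42 µM replicate 3 lay below DMSO replicate 2, and 28 µM replicate 4 was the lowest of all 12 arrays. At 42 µM the mean lay 1.05 above that of DMSO on the log2 scale (SE 0.43, adjusted p = 0.244). At 28 µM it lay 0.72 above, and 1.23 (SE 0.29, adjusted p = 0.0480) without replicate 4. Only 33 of the 60 bases of this probe are placed, at chr7:91741463-91741495 (minus strand). The dimmer probe, at chr7:91742609-91742668, was past both limits, with 1.35 (SE 0.32, adjusted p = 0.0391), so the probes of this gene gave different calls.

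TM7SF2, a sterol reductase that acts on the double bond left by CYP51A1, read 13.05, 12.88, 12.60 and 12.27 in DMSO, 13.89, 13.98, 13.62 and 12.27 at 28 µM and 13.88, 14.17, 13.55 and 13.40 at 42 µM on the probe at chr11:64883589-64883648 (plus strand). The 42 µM arrays lay above all DMSO arrays, and 28 µM replicate 4 was level with the lowest of DMSO. The difference at 42 µM, 1.05 (SE 0.32, adjusted p = 0.107), did not pass. At 28 µM it was 0.74, and without replicate 4 it was 1.13 (SE 0.21, adjusted p = 0.0167).

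MSMO1, the oxidase that begins the removal of the remaining methyl groups, read 7.59, 8.26, 8.37 and 8.33 in DMSO, 8.81, 9.43, 8.89 and 8.16 at 28 µM and 8.76, 8.93, 8.85 and 9.07 at 42 µM (chr4:166263190-166263249, plus strand). DMSO replicate 1 was the lowest of all arrays, and the 42 µM arrays lay within a narrow band above DMSO. The log2 difference was 0.77 at 42 µM (SE 0.23, adjusted p = 0.103). At 28 µM it was 0.68, and 0.91 (SE 0.20, adjusted p = 0.0366) without replicate 4.

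NSDHL, the dehydrogenase that follows MSMO1 in that removal, had the smallest log2 fold change of the 9 at both doses. It read 6.33, 6.92, 7.08 and 7.51 in DMSO, 7.33, 7.52, 7.12 and 6.98 at 28 µM and 7.39, 7.26, 7.33 and 7.71 at 42 µM (chrX:152027394-152027453, plus strand). The groups overlapped, with only 1 array of 42 µM above DMSO replicate 4. The difference was 0.46 at 42 µM, with a 95% interval of 0.01 to 0.92 and an adjusted p of 0.316, and 0.28 at 28 µM, or 0.37 without replicate 4. Its mean was 6.96 ± 0.49 in DMSO, the largest SD of the 9 genes in that group, and 7.42 ± 0.20 at 42 µM (SD, n = 4).

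EBP, the isomerase that shifts the ring double bond and is known for binding emopamil, read 15.08, 15.28, 15.22 and 14.98 in DMSO, 15.71, 15.54, 15.79 and 15.09 at 28 µM and 15.70, 15.79, 15.71 and 15.75 at 42 µM (chrX:48386942-48387001, plus strand). The 42 µM arrays lay above all DMSO arrays and differed among themselves by less than 0.1. At 42 µM the log2 difference was 0.60 (SE 0.14, 95% interval 0.29 to 0.91, adjusted p = 0.0399), at the size limit of 0.6. At 28 µM it was 0.39 (adjusted p = 0.331). Within slides the 42 µM difference was 0.72, 0.58 and 0.44.

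SC5D, the desaturase that places a new double bond in the ring, read 10.997, 10.94, 10.72 and 10.65 in DMSO, 11.85, 11.995, 11.58 and 10.91 at 28 µM and 11.99, 11.91, 11.49 and 11.33 at 42 µM (chr11:121178401-121178460, plus strand). The 42 µM arrays lay above all DMSO arrays, and 28 µM replicate 4 lay within the DMSO range. At 42 µM the log2 difference was 0.85 (SE 0.22), with an adjusted p of 0.0543, just outside the limit. At 28 µM it was 0.76 (adjusted p = 0.230), and 0.98 (SE 0.18, adjusted p = 0.0137) without replicate 4.

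DHCR7, the reductase that forms cholesterol in its last step and whose loss causes Smith-Lemli-Opitz syndrome, read 14.86, 14.58, 14.59 and 14.58 in DMSO, 15.71, 15.60, 15.53 and 14.59 at 28 µM and 15.89, 15.88, 15.66 and 15.42 at 42 µM (chr11:71145514-71145573, minus strand). The DMSO and 42 µM arrays did not overlap, and 28 µM replicate 4 had the DMSO level. The log2 difference was 1.06 at 42 µM (SE 0.21, 95% interval 0.60 to 1.52, adjusted p = 0.0206) and 0.70 at 28 µM (adjusted p = 0.243), with 0.96 (SE 0.14, adjusted p = 0.0045) without replicate 4. Within slides the 42 µM difference was 1.31, 1.29 and 1.08.

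**Figure D3:**
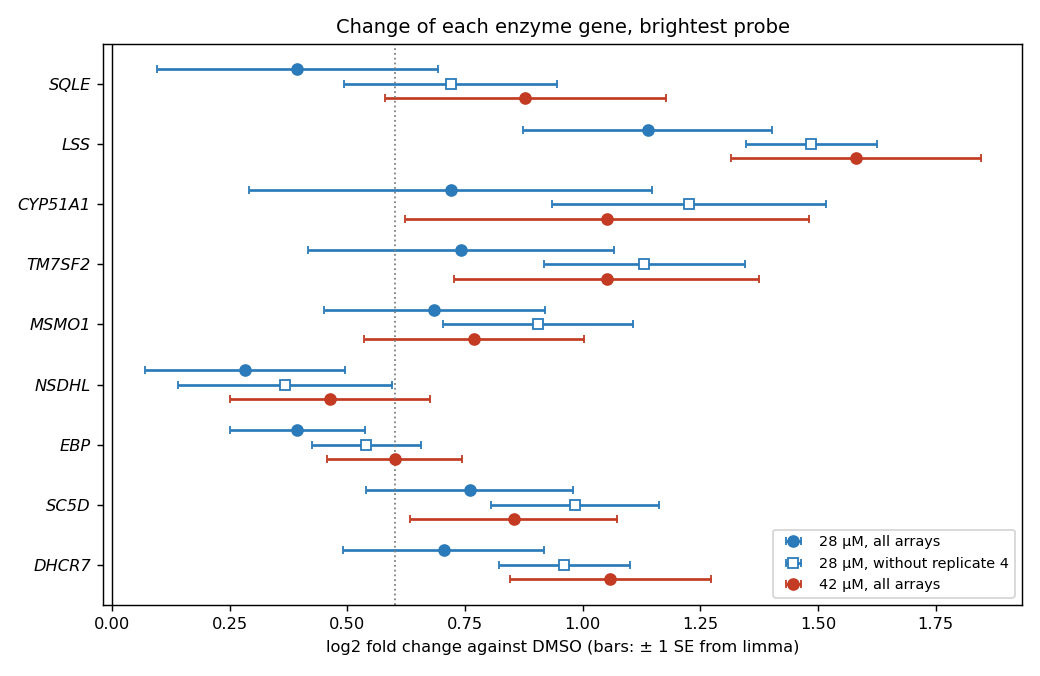
Log2 fold change against DMSO of each gene's brightest probe, in pathway order, at 28 µM with all arrays (filled blue), at 28 µM without replicate 4 (hollow blue) and at 42 µM (red). Bars are ± 1 SE from limma and the dotted line is the size limit of 0.6. All points lie right of 0, LSS is the farthest right and NSDHL lies left of the limit in all 3 series.

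The calls at 42 µM depended on single arrays, in the 9 genes and in all genes alike. Leaving out each array in turn gave 0 to 8 called genes of 9 at 42 µM. The count was 0 without DMSO replicate 2 or 42 µM replicate 2, where limma called 0% of all genes higher in either case. At an unadjusted p below 0.05, 8 and 9 of the 9 were higher in these fits, against 6.72% and 6.51% of all genes. A single member was called without DMSO replicate 1, 3 or 4, where 0.441%, 0.812% and 0.52% of all genes were called higher, or without 42 µM replicate 1, where 0.907% were. Without 42 µM replicate 3 or 4 the count was 2 and 3, against 0.957% and 1.72% of all genes, and without 28 µM replicate 1, 2 or 3 it was 3, 4 and 3, against 1.6%, 1.63% and 1.24%. It was 8 without 28 µM replicate 4. When slide entered the model as a block 0 of the 9 and 0% of all genes were called, and 7 of the 9 were higher at an unadjusted p below 0.05, against 8.75% of all genes. The log2 fold changes of LSS, EBP and DHCR7 were then 1.61, 0.63 and 1.12.

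Between the doses no gene passed, with 0 of the 9 called where 0% of all genes were. The 42 µM mean was above the 28 µM mean in all 9 genes, as it was in 54.7% of all genes, by 0.08 for MSMO1 to 0.48 for SQLE on the log2 scale, and limma's adjusted p was 0.9998 for each. The 95% intervals of the difference all held 0. The widest ran from −0.59 to 1.26, for CYP51A1, and those of SQLE and LSS ran from −0.16 to 1.13 and from −0.13 to 1.01. Differences between the doses within these bounds are not excluded by these arrays. Without 28 µM replicate 4 the difference was positive in 5 of the 9 and ranged from −0.17 to 0.16.

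The 16 probes allow the genes with several probes to be compared with themselves. All 4 LSS probes were called at 42 µM, with log2 fold changes of 1.58, 1.54, 1.22 and 1.14 in order of their brightness. The probes with 1.22 and 1.14 overlap in position (chr21:47608567-47608626 and chr21:47608587-47608646). Probes of a gene measure RNA of the same gene on the same arrays, so their calls are not independent. The dimmer TM7SF2 probe had 0.79 (adjusted p = 0.0637), below the 1.05 of its brighter one. The SC5D probes had 0.85, 0.74 and 0.27, the last from a probe at 6.46 in DMSO that was not well above background on every array. In all, 7 of the 16 probes were called at 42 µM, against 1.41% of all 33467 probes tested. Without 28 µM replicate 4 it was 14, and no share over all probes was taken in that fit. Counted by the brightest probe, 8 of the 9 genes were called there, against 2.24% of all genes called higher. Within LSS, TM7SF2 and SC5D the dimmer probes had the smaller differences, whereas the dimmer CYP51A1 probe had the larger one, 1.35 against 1.05. The part of brightness in these differences was not tested.

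**Figure D4:**
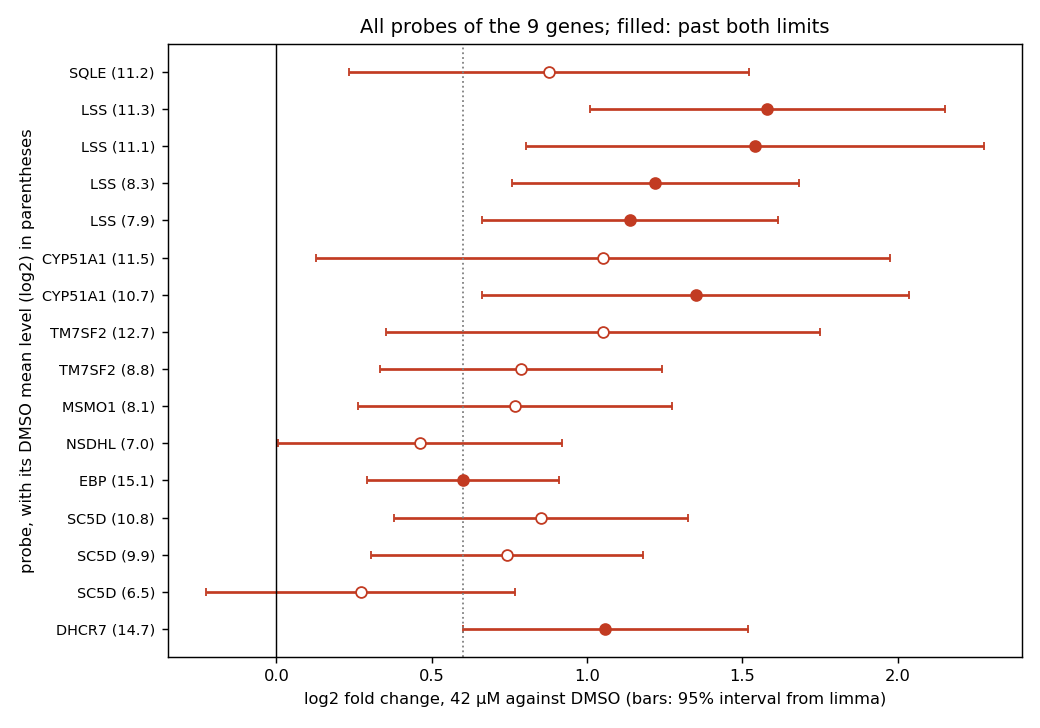
Log2 fold change at 42 µM against DMSO of each of the 16 probes, with 95% intervals from limma, grouped by gene in pathway order. The number in parentheses is the probe's mean log2 intensity in DMSO, filled points are past both limits and the dotted line is the size limit of 0.6. The 4 LSS probes are all filled, and the dimmest SC5D probe has an interval that holds 0.

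The mevalonate part of the route, from acetyl-CoA to squalene, was described with 9 genes. At 42 µM 6 of them were called higher and 0 lower, where 1.57% and 1.43% of all genes were, with a median log2 fold change of 0.77. They were MVD (1.37), HMGCS1 (1.23), ACAT2 (1.06), FDPS (0.87), FDFT1 (0.77), which makes squalene, and IDI1 (0.68). MVK, the kinase of mevalonate, had 0.77 with an adjusted p of 0.115. PMVK (0.15, adjusted p = 0.654) and GGPS1 (−0.09, adjusted p = 0.822), which leads away from sterols to longer prenyl chains, did not pass. At 28 µM 0 of the 9 were called, where 0% of all genes were. Without replicate 4 it was 7 at each dose, where 1.44% of all genes were called higher at 28 µM and 2.24% at 42 µM. Leaving out any other array gave 0 to 6 at 42 µM, the 0 without DMSO replicate 2 or 42 µM replicate 2, and the slide as a block gave 0, the 3 fits in which 0% of all genes were called higher.

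Of 5 other genes related to the steps after lanosterol, HSD17B7, LBR, EBPL, ERG28 and FAXDC2, 0 were called at either dose with all arrays, with a median of 0.17 at 42 µM. Over all genes, 1.57% were called higher and 1.43% lower at 42 µM, and 0% at 28 µM, so 0 of 5 is near these shares. ERG28, a scaffold of the demethylating enzymes, had 0.84 (adjusted p = 0.0754) and was called without 42 µM replicate 1, and HSD17B7, the ketoreductase that works with MSMO1 and NSDHL, had 0.62 (adjusted p = 0.0922), which passed at both doses without 28 µM replicate 4. LBR, which can carry out the reduction of TM7SF2, had −0.34 (adjusted p = 0.180), and EBPL, which resembles EBP, had −0.21 (adjusted p = 0.461). Both were also negative at 42 µM under the 5 other normalizations run.

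The difference between such a pair was also taken within each array and set to 0 at its DMSO mean, a choice made after the values were seen and given with no test. TM7SF2 minus LBR was 1.39 ± 0.42 at 42 µM and 1.03 ± 0.77 at 28 µM (SD, n = 4), where replicate 4 lay at −0.09 and the other 3 arrays gave 1.402 ± 0.21 (SD). EBP minus EBPL was 0.82 ± 0.21 and 0.63 ± 0.31, with replicate 4 of 28 µM at 0.26 and the other 3 arrays at 0.75 ± 0.23 (SD). The lowest 42 µM array of each pair lay at 1.002 and 0.68, and the DMSO arrays of the same pairs reached 0.36 and 0.18. Each pair sets a gene with a positive change against one with a negative change, so a gap from DMSO was largely built into the choice. No share over other gene pairs was taken.

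Electron donors of these enzymes showed no call. POR, which feeds SQLE and CYP51A1, stood 0.43 above DMSO at 42 µM on the log2 scale (adjusted p = 0.316), CYB5B 0.40, CYB5A −0.11 and CYB5R3 −0.07. Of the 4 genes 0 were called at either dose. Over all genes, 1.57% were called higher and 1.43% lower at 42 µM, and 0% at 28 µM, so 0 of 4 is near these shares. MARCHF6, the ubiquitin ligase known to degrade the SQLE protein, had −0.07 (adjusted p = 0.931).

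SREBP control and sterol transport were described with 9 genes, of which 4 were called higher at 42 µM and 0 lower, where 1.57% and 1.43% of all genes were, with a median of 0.65. INSIG1, which retains the SREBP complex and is itself a target, had 1.46 (adjusted p = 0.0399), SREBF2, the gene of SREBP2, 1.003 (adjusted p = 0.0159), NPC1L1, a sterol transporter, 0.84 (adjusted p = 0.0139) and SREBF1 0.83 (adjusted p = 0.0293). SCAP (0.40), INSIG2 (−0.07), MBTPS1 (0.27), MBTPS2 (0.40) and NPC1 (0.65) did not pass. At 28 µM 0 of the 9 were called, where 0% of all genes were, and 4 were without replicate 4, where 1.44% of all genes were called higher. The count at 42 µM was 0 in the same 3 fits in which 0% of all genes were called higher.

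**Figure D5:**
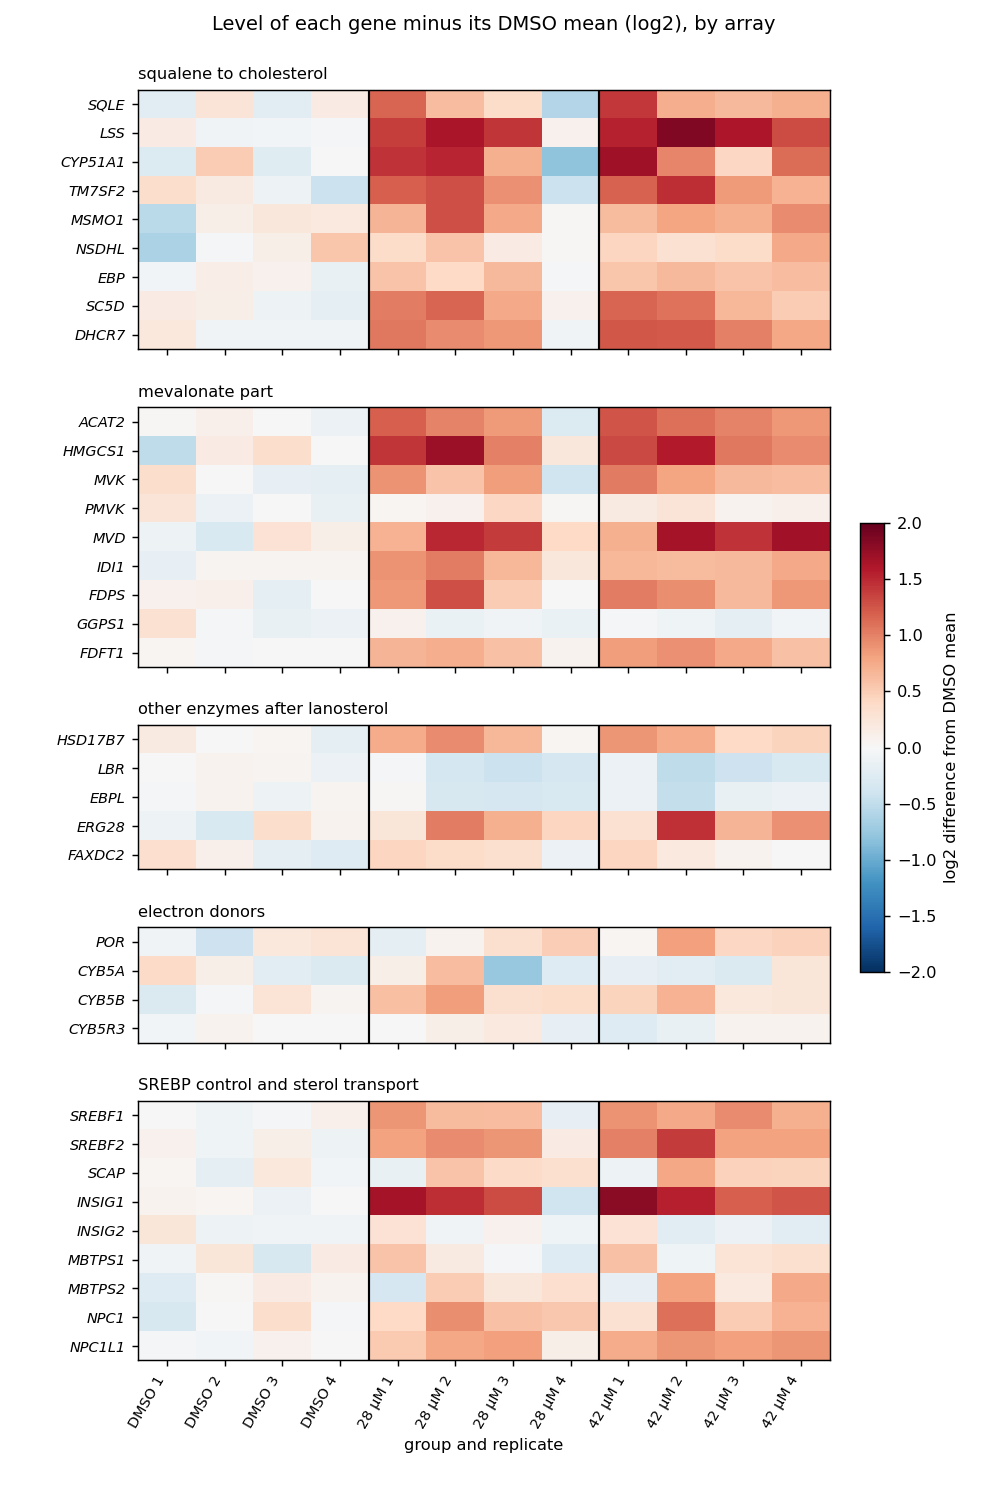
Level of each gene on each array minus its DMSO mean (log2, colour), for the 9 genes from squalene to cholesterol and the 4 lists described beside them. Columns are arrays by group and replicate. On 28 µM replicate 4 the highest of the 9 genes from squalene to cholesterol is at 0.09, and SQLE (−0.58) and CYP51A1 (−0.80) lie below 0. In the lists beside them, NPC1 (0.54), ERG28 (0.43) and MVD (0.40) are above 0 on this array, as on the other treated arrays.

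The genes most like the members in their pattern were sought over all 24208 genes with values on all 8 treated arrays. Each gene's values minus its DMSO mean were set against the mean of the same quantity over the 9 members, and likeness was the root mean square distance on the log2 scale. The nearest were SLC20A1, a phosphate transporter, at 0.0871, DUSP13A at 0.0958, FBXL2 at 0.128, LINC00087 at 0.129, WASHC2C at 0.131, FADS1, a fatty acid desaturase, at 0.131, the unnamed transcript THC2642650 at 0.134, ACAT2 at 0.137, GPT2, an alanine transaminase, at 0.139 and CDH1, the gene of E-cadherin, at 0.142. Of the members themselves, DHCR7 ranked 14 and LSS 2046, since LSS changed by more than the mean. This is a description over 8 arrays that include 28 µM replicate 4.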

How the data were processed

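RNA of 12 HuH-7 samples was measured on 1-colour Agilent arrays. The authors deposited Feature Extraction output (version 10.7.3.1 per the labels) with the mean and background intensity of each spot, and a table of log2 values that the authors had background-corrected (Edwards) and quantile normalized. Here, the intensities were processed again the same way with limma 3.58.1 in R 4.3.3, without control and outlier spots, and spots of a probe were averaged. A probe was dropped where 3 or more of the 4 arrays of each group were not well above background, which left 33467. One linear model of the 3 groups was fitted to all 12 arrays by lmFit and eBayes in limma (two-sided, Benjamini-Hochberg over all probes). For a gene, its probe of highest mean level was used. Named are all 9 genes with every probe, the called genes of the lists, filtered-out genes, and the 10 nearest in pattern, with others of the lists beside them chosen after their values were seen. Some genes of these lists are not reported here. The members and lists were chosen with earlier results of these data known. Names were updated by accession through RefSeq for 68.5% of the probes, and the exon or untranslated region of a probe was not analysed here. Alternatives changed the background correction, normalization, filter, model, probe rule or arrays. The fits were tested on simulated data. Precision is limited by the number of arrays. Promoters were searched with Python 3.11.15 and pandas 2.3.3 and plots drawn with matplotlib 3.10.9.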

Additional observations from a re-analysis of the deposited data

Results flagged for a closer look

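In 30 sets of 4 arrays (each of the 9 genes and their median, in each group), the farthest array was compared with the others by its gap as a share of the group's range and Dixon's 95% limit for 4 values. For separate sets, chance passes about 1 in 20. Here 7 of the 30 passed, but the sets of a group share the same 4 arrays, so this count is not weighed against that share. DMSO replicate 1 stood apart in LSS (share 0.900, a level of 11.46 against 11.23 to 11.26), in MSMO1 (share 0.860, 7.59 against 8.26 to 8.37) and in DHCR7 (share 0.976, 14.86 against 14.58 to 14.59). It was the highest DMSO array in LSS and DHCR7 and the lowest in MSMO1. In the median of the 9 genes, DMSO replicate 2 stood apart (share 0.890, 0.12 against −0.06 to −0.04). The 28 µM replicate 4 stood apart in LSS (share 0.843, 11.39 against 12.69 to 12.93) and in DHCR7 (share 0.835, 14.59 against 15.53 to 15.71), on the low side in both. The 42 µM replicate 1 stood apart in SQLE (share 0.897, 12.63 against 11.86 to 11.94). The cause of these was not tested.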

How the results depend on the processing

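No alternative turned the sign of a log2 fold change of the 9 genes at either dose in a refitted model. At 42 µM the count of called genes, 3, became 1 with the processed signal and quantile normalization, 1 with it scaled by the 75th percentile of each array and 1 with Edwards-corrected values scaled by that percentile. Choosing the brightest probe again under the processed signal, an alternative added after seeing the data, changed the probe of LSS alone and gave 0 with either normalization (LSS adjusted p = 0.0659 and 0.0859). The count was 0 with the slide as a block, where 0% of all genes were called higher, 5 with the replicate number as a block, 8 with only the groups compared and 5 with array weights. The other alternatives gave 2 to 4. The fit with only the groups compared leaves out the 28 µM arrays, replicate 4 among them. Of these fits, only that with the slide as a block has a share of all genes called. The counts of 5, 8 and 5 therefore cannot be set against all genes and are not read as results about the 9. Numbers over all genes for the other background corrections and normalizations are given below. Leaving out each array gave 0 to 8 at 42 µM and 0 to 6 at 28 µM, where every other alternative gave 0. Arrays with the same replicate number did not deviate together in every pair, since the correlations of their deviations from the group means ran from −0.46 to 0.62. The 0.62 is from the 1 such pair that also shares a slide. On different slides the median was 0.21 over 11 pairs with the same number and −0.18 over 28 pairs with different numbers. The median log2 fold change of the 9 genes stayed between 0.57 and 0.72 at 28 µM and between 0.77 and 0.92 at 42 µM in the refitted models, and between 0.48 and 0.96 and between 0.82 and 0.97 when an array was left out. Within slides it was 1.31, 1.19 and 0.55 at 42 µM on slides 2, 4 and 5, and 0.71, 1.13 and −0.13 at 28 µM on slides 1, 2 and 4, the last of which holds 28 µM replicate 4. On single slides 2 genes lay below DMSO at 42 µM, CYP51A1 by −0.09 on slide 5 and NSDHL by −0.12 on slide 2. LSS was called at 42 µM in 13 of 16 alternatives and 10 of 12 fits without an array, DHCR7 in 10 and 6, EBP in 9 and 4, and NSDHL in none. Over all genes, 381 were called higher and 346 lower at 42 µM, against 255 and 421 with Edwards-corrected values and 200 and 291 with the processed signal, both scaled by the 75th percentile. The processed signal with quantile normalization gave 206 and 177, another background correction (normexp) 366 and 333, and the authors' normalized values 379 and 337. With the processed signal or that scaling, 1 or 2 genes of the mevalonate part and 2 of SREBP control were called. The cause of these shifts was not tested. The limits are 4 arrays a group, a single cell line and 24 h, and a higher dose that the labels give in 2 ways.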
